A study of Mus musculus with 6 samples.

Results

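The 10 genes followed here respond to glucocorticoids and to cellular stress, and they were measured in mouse cerebellum. They are Fkbp5, Sgk1, Tsc22d3, Zbtb16, Cdkn1a, Ddit4, Mt1, Mt2, Errfi1 and Pdk4. They were taken by gene name, as every probe set that the platform annotation gives exactly 1 symbol, that of one of these genes. This gave 20 probe sets of the 45037 tested, for 10 of 18193 genes. The tissue came from wild-type mice (3 samples) and from transgenic mice (3 samples) carrying daDREAM, a dominant active form of the calcium-regulated transcriptional repressor DREAM, and each sample was hybridised to 1 Affymetrix GeneChip Mouse Genome 430 2.0 array. Per the labels, the replicates are biologically independent and the tissue was frozen after dissection, and whether a sample is a single animal is not stated there. The sources used here do not give the promoter that drives the transgene, nor the strain, age or sex of the mice. The comparison asks which of these transcripts differed between the genotypes, and how they varied together over the 6 arrays.

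Glucocorticoids enter cells and bind the glucocorticoid receptor, a transcription factor that moves to the nucleus and activates genes whose regulatory DNA holds a palindromic response element. Many of the genes it activates restrain growth, inflammation or the hormone response itself, and their transcripts rise within hours of stress. In brain they are expressed in glia, endothelium and neurons, and their levels follow the daily corticosterone rhythm as well as handling. Several of them also answer to other stresses: Cdkn1a to DNA damage through p53, Ddit4 to low oxygen and nutrient shortage, and the metallothioneins Mt1 and Mt2 to zinc and oxidative stress through the metal-sensing factor MTF1.

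The promoter sequences of RefSeq (assembly GRCm38.p6, 250 bases before to 50 after each annotated start) covered 9 of the 10 genes with 18 start sites, and Zbtb16 was not among them. They were searched on both strands for the full glucocorticoid response element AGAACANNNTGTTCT, for its single hexamer AGAACA, which overlaps it, and for the metal response element core, written TGCACNC or TGCGCNC. The full element was found at 1 of the 6 start sites of Sgk1, beginning 189 bases before it, and in 3 of all 32851 promoters of this length (0.00913%). The hexamer, present in 19% of those promoters, was found at 3 start sites of Sgk1 and 1 of Tsc22d3. Mt2 held 4 metal response cores and Mt1 held 3, where 1.97% of the promoters had 3 or more. Ddit4 and 1 start site of Sgk1 held 1 core each, where 25.7% of the promoters had at least 1. In Mt2 the cores began 223, 128 and 50 bases before the annotated start and 4 bases after it. In Mt1 they began 23 bases before and 2 and 20 bases after. These 3 promoters are shown, on the plus strand up to 30 bases past the start, because Sgk1 had the widest range over the arrays among the brightest probe sets of the members and the neighbours Mt1 and Mt2 ran in opposite directions. Capitals mark the full glucocorticoid element in Sgk1 (chr10:21993640-21993919) and the metal response cores in Mt1 (chr8:94178839-94179118) and Mt2 (chr8:94172368-94172647). A match of letters is a description and does not show that a factor binds there. Only exact letters within these windows were searched, so a missing match does not show that a gene lacks an element.
Sgk1: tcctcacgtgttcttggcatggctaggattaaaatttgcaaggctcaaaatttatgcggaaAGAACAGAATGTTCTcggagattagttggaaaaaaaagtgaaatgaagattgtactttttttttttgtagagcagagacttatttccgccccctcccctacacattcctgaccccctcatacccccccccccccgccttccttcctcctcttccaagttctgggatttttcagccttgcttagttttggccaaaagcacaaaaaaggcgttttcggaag
Mt1: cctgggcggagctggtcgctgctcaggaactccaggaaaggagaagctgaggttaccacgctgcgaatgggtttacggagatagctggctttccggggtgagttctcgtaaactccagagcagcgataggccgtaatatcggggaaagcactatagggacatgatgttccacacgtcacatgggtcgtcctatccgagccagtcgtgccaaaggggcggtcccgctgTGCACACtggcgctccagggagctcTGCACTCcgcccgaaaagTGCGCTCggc
Mt2: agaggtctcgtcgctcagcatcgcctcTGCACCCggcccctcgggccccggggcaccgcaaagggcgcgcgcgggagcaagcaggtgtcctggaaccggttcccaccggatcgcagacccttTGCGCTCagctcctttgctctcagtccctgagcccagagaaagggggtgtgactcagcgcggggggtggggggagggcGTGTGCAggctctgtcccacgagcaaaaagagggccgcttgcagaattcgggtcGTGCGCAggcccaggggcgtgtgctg

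All expression values are log2 units on the scale of RMA, which corrects background, equalises the arrays and combines the probes of a set. Differences are daDREAM minus wild type, so 1 unit is a doubling, and errors are SD over the 3 arrays of a genotype. The labelled tissue was read against its markers: in wild type and daDREAM respectively the Purkinje cell gene Pcp2 had means of 12.41 and 12.46 and the granule cell gene Gabra6 of 12.05 and 11.99, while the forebrain genes Neurod6 and Tbr1 had wild-type means of 3.04 and 2.75. The third forebrain marker measured, Ppp1r1b, did not follow them, with means of 9.02 and 9.07. Array daDREAM replicate 1 had the widest spread of all probe sets, with an interquartile range of 3.49, and daDREAM replicate 3 the narrowest, at 2.97. The wild-type arrays lay between, at 3.10 to 3.38. The mean of 18 hybridization controls, RNA added in fixed amounts, was 8.99 to 9.48 in wild type and 9.47 to 10.47 in daDREAM.

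No member passed the test of a difference between the genotypes. By limma, 0 of the 20 probe sets had an adjusted p under 0.05 and 0 an unadjusted p under 0.05, against 0% and 1.81% of all probe sets. Means were higher in daDREAM at 13 and lower at 6, with a median difference of 0.07 against 0.01 over all probe sets. The arrays of the genotypes did not overlap at 1 of the 20, a share near the 6.01% of all probe sets. At their brightest probe sets the members spread more widely within daDREAM than within wild type. Taking for each gene its probe set with the highest mean, the median SD over the 3 daDREAM arrays was 0.41 against 0.08 over the 3 wild-type arrays, and it was larger in daDREAM for 10 of 10 genes. Over the brightest probe set of each gene whose mean is 5 or more, the corresponding medians were 0.20 and 0.13. The share of all genes with the larger SD in daDREAM was not counted, so the 10 of 10 cannot be read as particular to the members. The arrays with the widest and the narrowest spread of all probe sets are both daDREAM. Of the dimmer member probe sets, Cdkn1a 1421679_a_at and Errfi1 1419816_s_at had the larger SD in wild type. Their SDs were 0.10 and 0.16 there, and 0.06 and 0.14 in daDREAM. Whether the spread differs between genotypes was not tested.

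**Figure D1:**
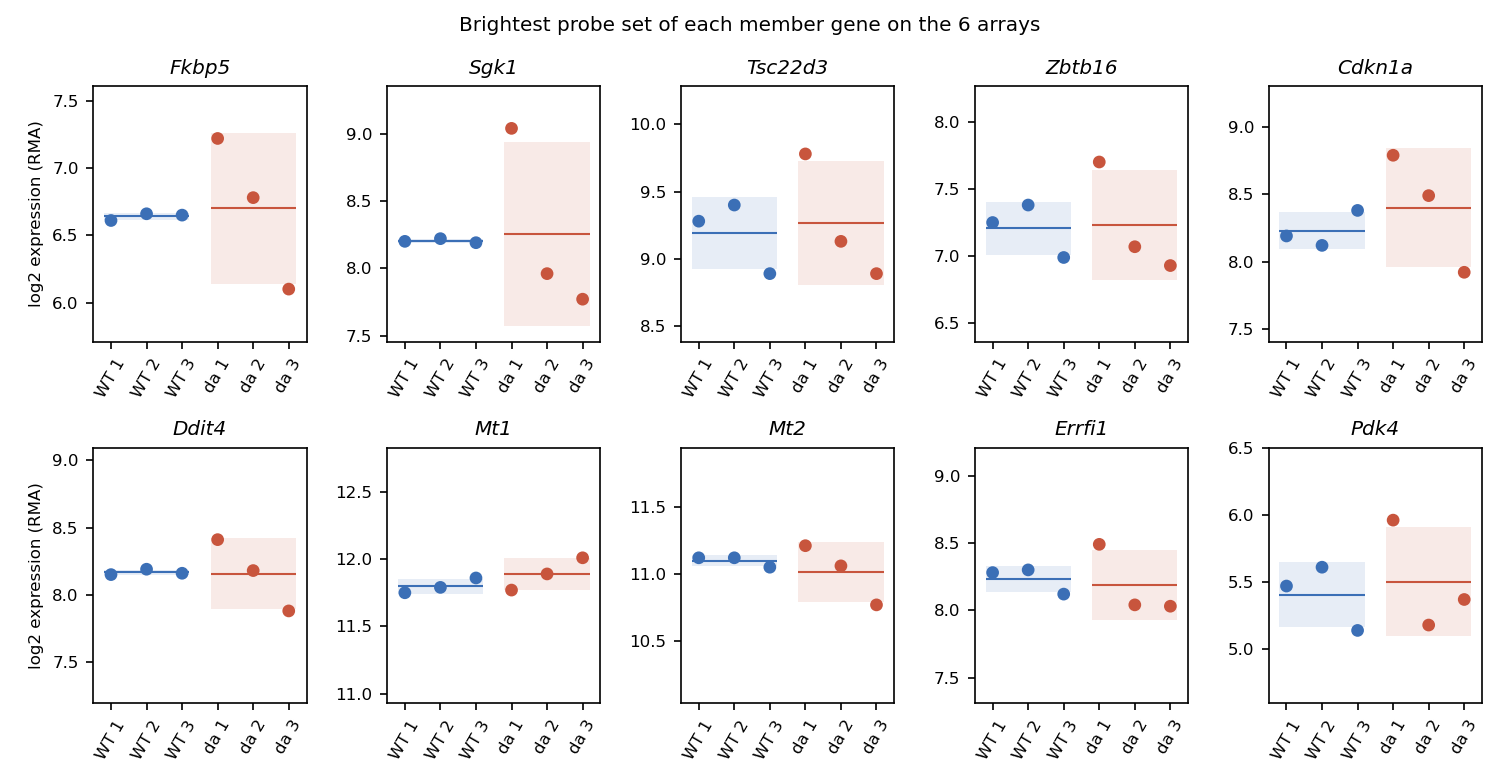
Log2 expression of the brightest probe set of each member gene on each array, wild type (WT, blue) and daDREAM (da, red), with lines at genotype means and bands of 1 SD (n = 3), each panel spanning the same log2 height. daDREAM replicate 1 is the highest array in 9 of 10 panels, and daDREAM replicate 3 the lowest in 7.

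Fkbp5 encodes a co-chaperone that lowers the hormone affinity of the glucocorticoid receptor and is itself induced by it. Its probe set 1416125_at read 6.61, 6.66 and 6.65 in wild type and 7.22, 6.78 and 6.10 in daDREAM replicates 1 to 3. The wild-type arrays lay within 0.05 of each other, and the daDREAM arrays fell on both sides of them. The difference was 0.06 with a 95% interval from -0.52 to 0.64. A dimmer probe set, 1448231_at, read 5.99, 5.89 and 6.03 against 6.08, 6.30 and 6.25. It was the single member probe set without overlap, higher in daDREAM by 0.24 (interval -0.03 to 0.51, limma adjusted p = 0.998). The probe sets of Fkbp5 did not follow each other, since on daDREAM replicate 1 the brighter stood 0.66 above the mean of the other 5 arrays and 1448231_at 0.01 below it. The third, 1447736_at, was dim at 2.73 to 2.82 and differed by 0.00.

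Sgk1, a kinase that raises sodium channel and transporter activity and is a direct target of the receptor, had the full element shown above. It read 8.20, 8.22 and 8.19 in wild type and 9.04, 7.96 and 7.77 in daDREAM. daDREAM replicate 1 exceeded the next array by 0.82 while the other daDREAM arrays lay below all wild-type arrays. The genotype means were 8.20 ± 0.02 and 8.26 ± 0.69 (SD, n = 3), which differ by 0.05 (95% interval -0.63 to 0.74). Without daDREAM replicate 1 the difference was -0.34 (limma adjusted p = 0.252).

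The transcriptional regulators showed the same order of arrays within daDREAM. Tsc22d3 encodes GILZ, a leucine zipper protein that mediates anti-inflammatory effects of glucocorticoids. Probe set 1420772_a_at read 9.28, 9.40 and 8.89 in wild type and 9.78, 9.13 and 8.89 in daDREAM, a difference of 0.08 (interval -0.47 to 0.63). The genotypes overlapped and shared their lowest value. Probe sets 1425281_a_at and 1425557_x_at differed by 0.11 and 0.12 and were also highest on daDREAM replicate 1. The dim 1444365_at, with a mean of 3.68, differed by -0.16. Zbtb16 encodes PLZF, a zinc finger repressor induced by glucocorticoids in many tissues. Its brightest probe set 1439163_at read 7.25, 7.38 and 6.99 against 7.70, 7.07 and 6.93, a difference of 0.03 (interval -0.46 to 0.52). Probe set 1419874_x_at ran alike, from 6.43 on daDREAM replicate 1 to 5.04 on daDREAM replicate 3, and differed by -0.31. Probe set 1427638_at ran the other way, at 5.12 and 5.91 on those arrays, and differed by 0.17. The probe sets of Zbtb16 thus disagreed in the order of arrays.

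Errfi1 encodes a feedback inhibitor of the EGF receptor, and Pdk4 a kinase that switches off pyruvate dehydrogenase when fatty acids are burned. Errfi1 at 1416129_at read 8.28, 8.30 and 8.12 in wild type and 8.49, 8.04 and 8.03 in daDREAM, a difference of -0.05 (interval -0.40 to 0.31). Its other probe set, 1419816_s_at, differed by 0.10 and was highest on daDREAM replicate 2. Pdk4 at 1417273_at read 5.47, 5.61 and 5.14 against 5.96, 5.18 and 5.37, a difference of 0.10 (interval -0.41 to 0.60). Both genes stood above all other arrays on daDREAM replicate 1, by 0.19 and 0.35.

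Of the growth-restraining members, Cdkn1a encodes the cyclin-dependent kinase inhibitor p21 and Ddit4 encodes REDD1, which inhibits mTOR complex signalling. Cdkn1a at 1424638_at read 8.19, 8.12 and 8.38 in wild type and 8.79, 8.49 and 7.92 in daDREAM, a difference of 0.17 (interval -0.32 to 0.66). Here 2 of the daDREAM arrays lay above and 1 below all wild-type arrays. The other probe set, 1421679_a_at, stayed between 6.18 and 6.38 and differed by -0.05. Ddit4 at 1428306_at read 8.15, 8.19 and 8.16 against 8.41, 8.18 and 7.88. Its wild-type SD was 0.02 and its daDREAM SD 0.27, with a difference of -0.01 (interval -0.36 to 0.34).

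Mt1 and Mt2 encode small cysteine-rich proteins that bind zinc and copper, and their annotated starts lie 6471 bases apart on the same strand. Mt1 at 1422557_s_at read 11.75, 11.79 and 11.86 in wild type and 11.77, 11.89 and 12.01 in daDREAM, a difference of 0.09 (interval -0.18 to 0.36). Mt2 at 1428942_at read 11.12, 11.12 and 11.05 against 11.21, 11.06 and 10.77, a difference of -0.08 (interval -0.41 to 0.24). daDREAM replicate 3 was thus the highest array for Mt1 and the lowest for Mt2. The second probe set of Mt1, 1451612_at, was dim at 5.25 to 5.79 and again highest on daDREAM replicate 3. It differed by 0.26 (interval -0.06 to 0.58). The ranges over the 6 arrays were small for both bright probe sets, 0.26 for Mt1 and 0.44 for Mt2, and probe sets of such close relatives can share labelled RNA.

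**Figure D2:**
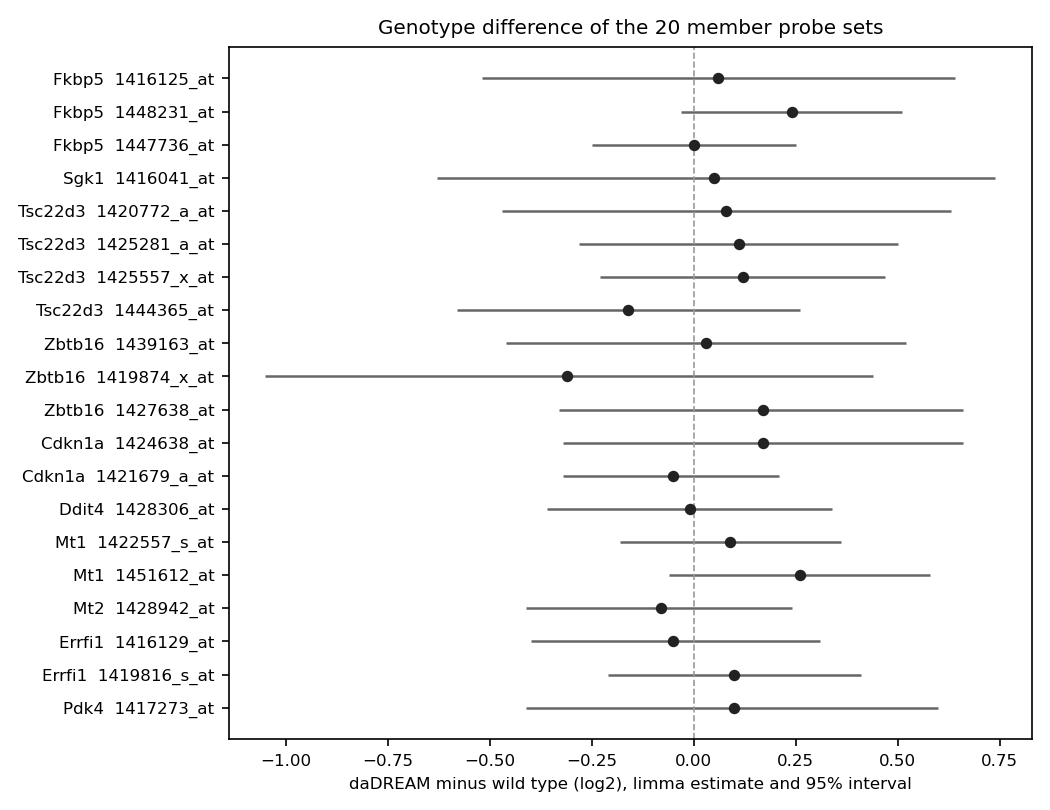
Difference between genotype means (daDREAM minus wild type, log2) for each of the 20 member probe sets, with limma's 95% interval from 3 arrays per genotype. Every interval crosses the dashed line at 0, and that of Zbtb16 1419874_x_at, from -1.05 to 0.44, is the widest.

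The position of daDREAM replicate 1 was then set against all genes, a count chosen after the values were seen. With the brightest probe set of each gene, it was the highest of the 6 arrays for 9 of the 10 members, Mt1 being the exception, where it was highest for 24.4% of all genes and for 34.1% of those with a mean of at least 5. It lay at least 0.4 above the mean of the other 5 arrays for 6 members, Fkbp5, Sgk1, Tsc22d3, Zbtb16, Cdkn1a and Pdk4, by 0.57 to 0.97, where 12.7% of genes with a mean of at least 5 did. daDREAM replicate 3 was the lowest array for 7 members, against 38.6% of those genes. The dimmer probe sets did not all share this order: over all 20 member probe sets daDREAM replicate 1 was highest for 12 and daDREAM replicate 3 lowest for 8. All of these lie among the 18 with a mean of at least 5, where the shares over every such probe set of the array were 33.3% and 37.9%. The dimmer probe sets of Fkbp5, Cdkn1a and Errfi1, with Tsc22d3 1444365_at and Zbtb16 1427638_at, had their highest value on another array. The array spread given above moves with these values. After quantile normalization was run again, which brought the interquartile ranges of the arrays to 3.225 to 3.232, daDREAM replicate 1 was still highest for 9 members, against 20.2% of genes. It lay at least 0.4 above the other arrays' mean for 6, by 0.41 to 0.82, against 5.89% of genes. daDREAM replicate 3 was then lowest for 4, against 25.4%. In this setting Sgk1 read 8.92 on daDREAM replicate 1 and 7.92 to 8.26 on the other 5 arrays. The renewed values still moved with the original interquartile ranges, so this setting does not take the array spread out of the members. Their Pearson r with those ranges was -0.894 for Mt1 and ran from 0.272 for Cdkn1a to 0.933 for Zbtb16 over the other 9.

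Co-variation was measured over the 6 arrays for the 45 pairs of members, each by its brightest probe set. The pairs hold for those probe sets only. Of the others with a mean of at least 5, Fkbp5 1448231_at had an r of -0.229 with the brightest and Zbtb16 1427638_at of -0.876. Cdkn1a 1421679_a_at had -0.314 and Errfi1 1419816_s_at -0.269. Tsc22d3 1425281_a_at and 1425557_x_at had 0.946, Zbtb16 1419874_x_at 0.878 and Mt1 1451612_at 0.906. All 36 pairs without Mt1 had a positive Pearson r, from 0.371 for Cdkn1a and Pdk4 to 0.990, with a median of 0.815, and all 9 pairs with Mt1 were negative. Of the 45 pairs 20 reached an r of at least 0.8. By the exact permutation test, 2-sided, 17 pairs had an unadjusted p under 0.05 and 0 passed after adjustment over the 45, with Pearson's r or with Spearman's rho (smallest adjusted p = 0.0625 for both). With each array centred on its median 4 pairs passed: Sgk1 and Errfi1, Tsc22d3 and Zbtb16, Zbtb16 and Errfi1, and Ddit4 and Mt2 (exact permutation adjusted p = 0.0208 to 0.0469).

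**Figure D3:**
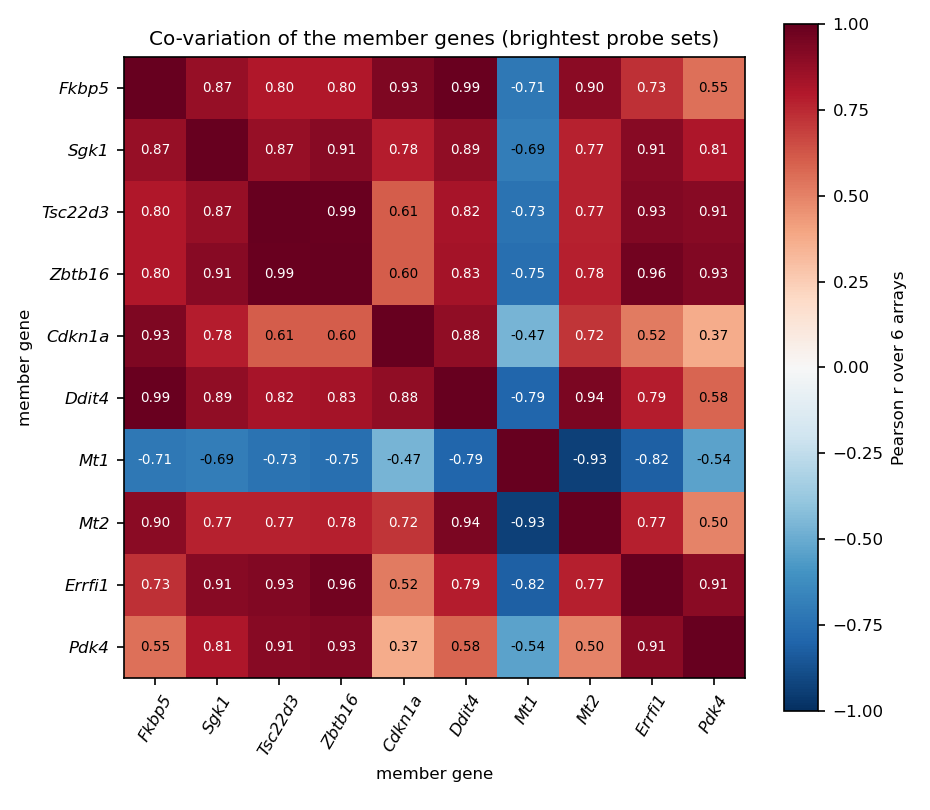
Pearson r over the 6 arrays for each pair of member genes, both axes listing the genes by their brightest probe sets. Tsc22d3 and Zbtb16 reach 0.990, and the row of Mt1 is negative throughout, down to -0.932 with Mt2.

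Among the pairs, Tsc22d3 and Zbtb16 kept their relation in each setting. Their r was 0.990 (exact permutation p = 0.00278, adjusted p = 0.0625), and their rho 0.986 (exact permutation p = 0.00556, adjusted p = 0.0625). Without the 2 arrays farthest from the median of the first-named gene r was 0.985, and without daDREAM replicate 1 it was 0.973. Those 2 farthest arrays were picked anew for each pair, so they differ between pairs. After each genotype mean was taken off r was 0.993. Sgk1 and Errfi1 had the arrays in the same order, with r = 0.914 (exact permutation p = 0.00139, the smallest possible, adjusted p = 0.0625). Their rho was 1.000 (exact permutation p = 0.00278, adjusted p = 0.0625), and r was 0.818 without the 2 arrays farthest from the median of Sgk1. Fkbp5 and Ddit4 reached r = 0.990 (exact permutation p = 0.00972, adjusted p = 0.0625; rho = 0.943, exact permutation p = 0.0167, adjusted p = 0.0833), 0.980 without daDREAM replicate 1 and 0.573 without the 2 farthest arrays. Fkbp5 and Sgk1 had r = 0.874 (exact permutation p = 0.0625, adjusted p = 0.129; rho = 0.600, exact permutation p = 0.242, adjusted p = 0.32). Without the 2 farthest arrays that r was -0.939, over 4 arrays whose Fkbp5 values lay within 0.17, so the relation rests on daDREAM replicates 1 and 3. Mt1 and Mt2 had r = -0.932 (exact permutation p = 0.0111, adjusted p = 0.0625; rho = -0.841, exact permutation p = 0.0444, adjusted p = 0.146), -0.895 without the 2 farthest arrays and -0.948 within genotype.

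Much of the array is ordered in the same way. Of 7923 probe sets, those whose mean is at least 6 and whose SD is at least 0.2, 47.9% had an r of at least 0.8 with the interquartile range of the array and 8.96% an r of at most -0.8. That relation, chosen after seeing the data, was positive for 9 members and negative for Mt1, and 9 of the 10 passed after adjustment over the 10 with Pearson's r and 5 with Spearman's rho (exact permutation test). Without the 2 arrays farthest from the median interquartile range the r of Fkbp5 was -0.362. It was closest for Zbtb16, at r = 0.970 (exact permutation p = 0.00139, adjusted p = 0.0139; rho = 1.000, exact permutation p = 0.00278, adjusted p = 0.0185), and at 0.998 when the 2 farthest arrays were left out. Cdkn1a did not pass, at r = 0.579 (exact permutation p = 0.226, adjusted p = 0.226; rho = 0.486, exact permutation p = 0.356, adjusted p = 0.356), and at -0.891 when they were left out. For comparison, 36.5% of those probe sets followed Zbtb16 and 26.1% followed Sgk1 at an r of at least 0.8, and 7.71% followed Cdkn1a. After renewed quantile normalization 11 of the 45 pairs reached an r of at least 0.8. All 36 pairs without Mt1 were still positive in that setting, from 0.072 to 0.982. In the deposited values without daDREAM replicate 1, 31 of those 36 were positive, with a lowest r of -0.654. Without the 2 arrays farthest from the median of the first-named gene 22 were positive, with r from -0.995 to 0.992. The shared sign thus depends on the arrays included. The part of the array spread in the co-variation was not tested further.

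**Figure D4:**
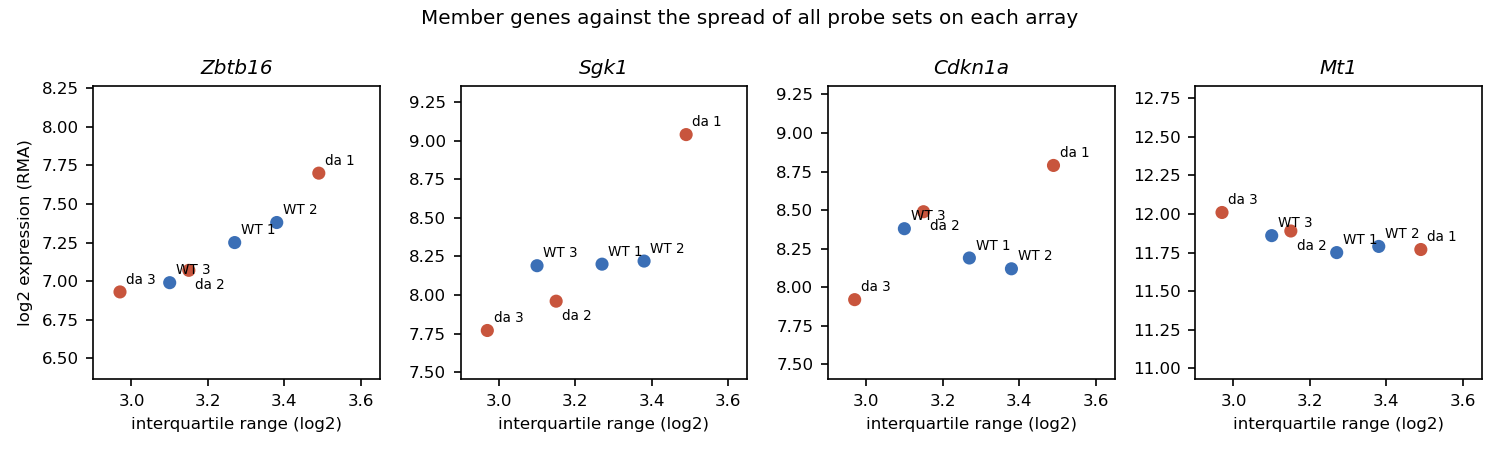
Log2 expression of Zbtb16, Sgk1, Cdkn1a and Mt1 (brightest probe sets) against the interquartile range of all probe sets on the same array, wild type (WT) blue and daDREAM (da) red. Zbtb16 follows the range in order over all 6 arrays, Sgk1 departs at daDREAM replicate 1, and Mt1 runs downwards.

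The hybridization controls gave 10 further relations, of which 0 passed after adjustment and 1 had an unadjusted p under 0.05. This was Mt1, at r = 0.913 (exact permutation p = 0.00694, adjusted p = 0.0694) and rho = 0.943 (exact permutation p = 0.0167, adjusted p = 0.167). Its r was 0.556 when the 2 arrays farthest from the median control level were left out. The other 9 members ran against the control level, from r = -0.138 for Cdkn1a to r = -0.758 for Mt2 (exact permutation adjusted p = 0.264 to 0.774). That direction rests on the 2 arrays farthest from the median control level. Without them the r of these 9 members with the control level ran from -0.022 for Tsc22d3 to 0.816 for Cdkn1a. With that level as a covariate Mt2 differed by 0.22 and the bright probe set of Mt1 by -0.10, both of opposite sign, and no member passed. Other differences became larger: Sgk1 went from 0.05 to 0.94, Tsc22d3 1420772_a_at from 0.08 to 0.86 (the smallest limma adjusted p, 0.0829), Fkbp5 1416125_at from 0.06 to 0.76, Pdk4 from 0.10 to 0.71 and Zbtb16 1439163_at from 0.03 to 0.69. The control level partly follows genotype, so the effects of the pair cannot be told apart cleanly.

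By the rule for named genes, those most alike to the 3 members of largest SD were also listed, by Pearson r over the 6 arrays and as a description. For Sgk1 they were the glutamate receptor gene Grm7 at 0.999, the imprinted noncoding RNA Meg3 at 0.996 and the lipid flippase subunit Tmem30a at 0.995. For Fkbp5 they were the RNA-binding protein Hnrnpc at 0.998, the coagulation factor gene F3 at 0.997 and the bicarbonate transporter Slc4a4 at 0.996. For Tsc22d3 they were Hps3 at 0.996, the mTOR regulator Tsc1 at 0.994 and Lrrcc1 at 0.993. None of these 9 is a member. Between 134 and 182 probe sets per member reached an r of at least 0.95, of up to 6875 compared.

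The wider pathway was read from lists of genes, each by its brightest probe set, and no gene of any list passed limma after adjustment. Of the receptors and steroid-handling genes 14 of 16 were measured, 6 higher and 8 lower in daDREAM, with a median difference of -0.01 against 0.01 over all genes. The largest differences were those of Hsd11b2, which inactivates corticosterone, at 0.32 on a dim probe set with a wild-type mean of 4.16, and the receptor coactivator Ncoa2, at -0.25. The receptor itself, Nr3c1, named after its values were seen, read 10.11, 10.13 and 9.78 in wild type and 9.79, 9.78 and 9.72 in daDREAM, a difference of -0.24 (limma adjusted p = 0.998). Its level on daDREAM replicate 1 lay within the range of the other arrays, unlike Sgk1 and Fkbp5. The list was not of 1 kind in this. daDREAM replicate 1 was the highest array for 7 of its 14 genes, Ncoa2 among them, against 24.4% of all genes.

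Of 24 further glucocorticoid targets 23 were measured, 13 higher and 9 lower, with a median of 0.01. Sult1a1, a sulfotransferase, differed by 0.43 and Lcn2, an iron-carrier binding protein of acute inflammation, by -0.40 (limma adjusted p = 0.998 for both). Lcn2 ran from 3.79 to 6.23 over the arrays, with high values in both genotypes. daDREAM replicate 1 was the highest array for 12 of the 23, against 24.4% of all genes, and for 11 of the 20 with a mean of at least 5, against 34.1%. Among them, named after their values were seen, the metabolic regulator Klf15 read 8.14 there against 7.12 to 7.68 elsewhere, and the astrocyte gap junction gene Gjb6 read 9.34 against 8.07 to 8.91. The germinal centre repressor Bcl6 read 8.45 against 7.31 to 7.98, the phagocytic receptor Mertk 7.95 against 6.98 to 7.51 and the clock gene Per1 8.58 against 7.67 to 8.08. Dusp1, Klf9 and Anxa1 were not highest on that array.

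**Figure D5:**
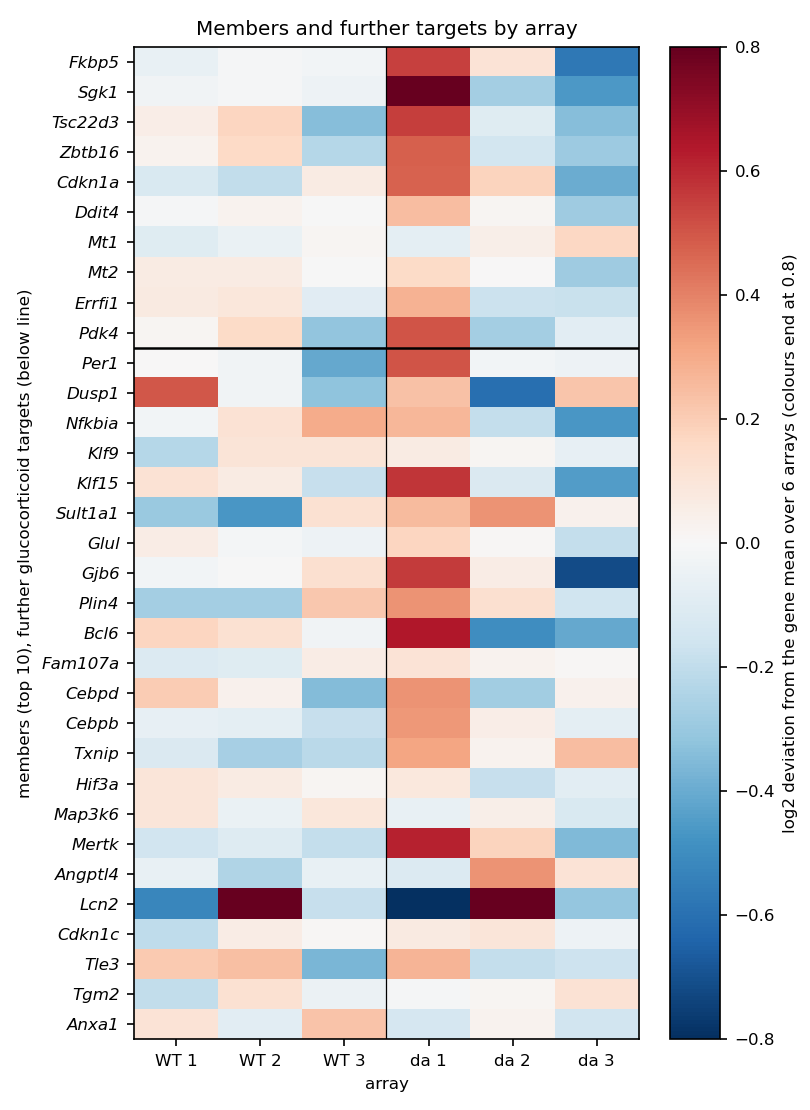
Log2 deviation from each gene's mean over the 6 arrays, for the 10 members (above the line) and 23 further glucocorticoid targets (below it), with wild-type arrays (WT) to the left and daDREAM arrays (da) to the right. Colours end at 0.8 and daDREAM replicate 1 is the array with the most red, being highest for 9 members and 12 further targets.

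The remaining lists also had no call. Metal and redox genes were 4 higher and 6 lower of 11 with a median of -0.02, led by the zinc exporter Slc30a1 at -0.27 and heme oxygenase Hmox1 at 0.22. The neuronal metallothionein Mt3 read 10.84, 10.89 and 10.57 against 10.75, 10.86 and 10.88, a difference of 0.06. The p53 and arrest genes, 9 of 11 measured, had a median of 0.02, with the replication clamp Pcna at -0.22 and Gadd45a at 0.18. Integrated stress and mTOR genes were 9 higher and 4 lower of 13 with a median of 0.05, led by the stress-induced factors Atf3 at 0.28 and Atf4 at 0.23. Among 14 paralogs of the members, Tsc22d2 differed by -0.36 and Sgk3 by -0.22, and the median was -0.01. The receptors and ligands of the ERBB family, on which Errfi1 acts, had a median of 0.10 over 6 genes, with Egfr at 0.42 and Erbb3 at -0.36. For these 6 genes daDREAM replicate 1 was highest for 0, against 24.4% of all genes. Among them Erbb4 and Nrg1 were dim, with means of 3.53 and 3.83. Errfi1 itself was highest on daDREAM replicate 1 at its brightest probe set, and at 1419816_s_at it was not. In the other lists that array was highest for 6 of 11 metal and redox genes and 6 of 9 p53 and arrest genes. It was highest for 5 of 13 integrated stress and mTOR genes and 5 of 14 paralogs. Being highest there was thus not particular to the glucocorticoid targets.

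Markers of cell types were read beside the members. In bulk tissue fewer cells of a type and less RNA per cell cannot be told apart. The mean level of the choroid plexus markers, the list with the largest median difference between the genotypes at 0.43, was 6.17 to 6.49 in wild type and 6.79 to 6.93 in daDREAM, with 6 of 6 higher. Of these 6, 4 did not overlap between the genotypes and had an unadjusted limma p under 0.05, against 6.01% and 1.81% of all probe sets, and none passed after adjustment. The furthest was Sostdc1, a secreted BMP and Wnt inhibitor, at 4.59 to 5.19 in wild type and 5.46 to 6.14 in daDREAM (limma adjusted p = 0.998). Meninges markers were higher for 5 of 5, 3 of them without overlap and 2 with an unadjusted limma p under 0.05. Microglia markers were higher for 5 of 5, with 0 without overlap and 0 with such a p. The median difference was 0.24 for each list, and none passed after adjustment. The mean of the choroid plexus markers stood at 6.82 on daDREAM replicate 1 and at 6.79 on daDREAM replicate 3. These values lay close to each other where Sgk1 read 9.04 and 7.77. On daDREAM replicate 1 the mean over choroid plexus markers was 0.25 above that of the other 5 arrays, and those over granule cell, microglia and meninges markers 0.18, 0.16 and 0.14. Those over Bergmann glia and astrocyte, Purkinje and oligodendrocyte markers stood 0.15, 0.14 and 0.10 above. Endothelial and pericyte markers stood 0.07 below the other 5 arrays and blood markers 0.46 below. Single markers stood further up: 7 of the 40 with a mean of at least 5 were at least 0.4 above the other 5 arrays there, against 12.7% of such genes. They ran from Mog at 0.40 to Sostdc1 at 0.96, a range that reaches that of the members. Sostdc1 exceeded the next array by 0.11, where Sgk1 did by 0.82. Kl and Igfbp2, at 0.57 and 0.52, were highest on daDREAM replicate 2. The rest were highest on daDREAM replicate 1, Pax6 by 0.30 over the next array. The part of the markers in the result was not tested.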

How the data were processed

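The arrays measured mRNA of cerebellar tissue in 3 wild-type and 3 daDREAM samples, grouped by the sample titles. The authors deposited log2 values, 1 per probe set and array, made with RMA in affy per the submitters' processing notes. The sources used here give no versions. RMA can hide changes shared by most genes and compresses those of dim probe sets, and the values carry no detection call. The number of arrays limits the precision.

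Of 45101 probe sets 64 controls were left out. Genes were named from the platform annotation where it gives 1 symbol (34945 probe sets, 932 with several, 9160 with none), and symbols were updated by Entrez identifier through RefSeq of GRCm38.p6 for 34741. Differences were fitted with limma (version 3.58.1, R version 4.3.3) over all 45037 probe sets, equal weights, 2-sided, with Benjamini-Hochberg adjustment at 0.05. The procedure was tested on simulated data. Correlations over the 6 arrays used exact permutation tests in Python with numpy 2.4.6. The members, gene lists and the rule for named genes were chosen with earlier results of these data known. The rule took every member probe set, the 2 genes of largest absolute difference in each list with any gene past the threshold, and the 3 genes most alike to the 3 members of largest SD. The alternatives tried were the replicate number as a block, a mean level of at least 5, renewed quantile normalization, median centring, a trended robust variance prior, the hybridization controls as a covariate, each array left out and a gene's probe sets averaged. Renewed quantile normalization and the omission of daDREAM replicate 1 in the pairs of members were added after seeing the data.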

Additional observations from a re-analysis of the deposited data

How the results depend on the processing

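No member passed limma after adjustment in any of the 12 alternatives, and 0 of all probe sets were called in each. The number with an unadjusted p under 0.05 ran from 324 without wild-type replicate 1 to 10471 with the hybridization controls as covariate. Neither signs nor sizes of the differences were stable. With the level of the hybridization controls as covariate 7 of 20 member probe sets changed sign: Zbtb16 1419874_x_at to 0.79 and 1427638_at to -0.45, Ddit4 to 0.33, Mt1 1422557_s_at to -0.10 and 1451612_at to -0.06, Mt2 to 0.22 and Errfi1 1416129_at to 0.35. Of those that kept their sign, Sgk1 went to 0.94, Tsc22d3 1420772_a_at to 0.86, Fkbp5 1416125_at to 0.76, Pdk4 to 0.71, Zbtb16 1439163_at to 0.69 and Cdkn1a 1424638_at to 0.62 (limma adjusted p = 0.0829 to 0.214). Renewed quantile normalization moved Ddit4 to 0.03, and the mean of the probe sets gave -0.04 for Zbtb16 and 0.03 for Errfi1. The cause was not tested. With 1 array left out, the differences that changed sign ranged as follows: Fkbp5 1416125_at -0.20 to 0.36, Sgk1 1416041_at -0.34 to 0.30, Tsc22d3 1420772_a_at -0.18 to 0.27, Tsc22d3 1425281_a_at -0.03 to 0.21, Tsc22d3 1425557_x_at -0.01 to 0.22, Zbtb16 1439163_at -0.21 to 0.18, Zbtb16 1419874_x_at -0.66 to 0.04. The others were Zbtb16 1427638_at -0.01 to 0.39, Cdkn1a 1424638_at -0.02 to 0.41, Ddit4 1428306_at -0.14 to 0.13, Mt2 1428942_at -0.18 to 0.04, Errfi1 1416129_at -0.20 to 0.03, Pdk4 1417273_at -0.13 to 0.26. Without daDREAM replicate 1, 8 of the 20 changed sign and 7254 of all probe sets had an unadjusted p under 0.05 against 817 with it. Of the 45 pairs, 20 had an r of at least 0.8. The number was 11 after renewed quantile normalization and 10 without daDREAM replicate 1. It was 13 without the 2 arrays farthest from the median of the first-named gene of each pair. It was 24 within genotype and 27 after median centring.

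The labels name no pairing by replicate number. Deviations of same-numbered arrays correlated at 0.119, -0.281 and 0.323. Of the 3 arrays of each genotype, 2 in wild type and 1 in daDREAM had their best partner under their own number. So few arrays cannot decide whether the numbers are a pairing. With the replicate block 0 probe sets were called, 1093 had an unadjusted p under 0.05, and all 20 member differences kept their sign.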
